A study of Oryza sativa Japonica Group with 9 samples.

Results

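The genes described here are the rice nuclear genes named as ribosomal proteins or translation factors, measured in cortex cells cut by laser from mycorrhizal and mock-inoculated roots. A gene was taken when its symbol or a synonym, with any Os prefix ignored, was RPS, RPL, RPP, EIF or TIF followed by a number, or REFA1 or EF1A. The TIFY genes were left out. The rule matched 80 gene names, of which 39 lie on the organelle genomes and were not represented by a probe set, and 7 of the 41 nuclear genes were not either. The remaining 34 genes, of 17905 genes with a probe set of their own, are the members. Going mainly by symbol, 30 of the members were taken to act in translation. They were 11 proteins of the small ribosomal subunit, 13 of the large subunit, 5 initiation factors and 1 elongation factor. Names of succinate dehydrogenase were used to set rps14 apart from them. Their other names were not otherwise used to check this role, and EIF4A3 is counted with the initiation factors by its name. The other 4 members carry matching symbols but also names that are not of translation. RPP13-1 is also named as a thioredoxin h, RPP16 as ERG3 and RPP17-1 as ERG1, and the nuclear rps14 locus also encodes the iron-sulfur subunit of succinate dehydrogenase. By its symbol alone rps14 would count as a small subunit protein. Thus no RPP member is named as an acidic stalk protein, and values of these 4 genes are given apart.

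The cytosolic ribosome reads mRNA on its small subunit and joins amino acids on its large subunit, and the proteins of both subunits are needed in near-equal amounts. Initiation factors bring the ribosome to the capped mRNA, and the elongation factor EF-1-alpha (REFA1 in rice) delivers aminoacyl-tRNA to it. In arbuscular mycorrhiza a fungus grows a branched arbuscule inside a root cortex cell, and the plant builds a new membrane around it.

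All plants were the rice cultivar Nipponbare, harvested at 7 weeks. The arbusculated group (3 arrays) holds cortex cells that contained an arbuscule of Rhizophagus irregularis, given at planting as 250 spores. The systemic group (3 arrays) holds fungus-free cortex cells lying next to arbusculated ones in the same kind of colonised root, and the mock group (3 arrays) holds cortex cells of roots that received a mock inoculation. Each array received RNA of roughly 2000 captured cells. The labels do not tie replicates to separate plants, so p-values measure only the spread between these samples, which may be technical. As each array averages many cells, more cells with a transcript and more transcript per cell cannot be told apart.

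Values are log2 signals, and the 9 arrays had medians between 5.42 and 5.54 over 57258 rice probe sets. The number of arrays limits the precision. Of the labelled cell markers, PT11, the phosphate transporter of the membrane around the arbuscule, averaged 8.88 ± 0.57 in arbusculated cells, 4.10 ± 0.48 in systemic cells and 3.88 ± 0.32 in mock cells on its probe set with the largest difference (SD, n = 3 each). That difference was 5.00 between arbusculated and mock cells (limma, adjusted p = 0.0030). The other 3 probe sets of PT11 differed by 2.01, -0.33 and -0.81 in that comparison and did not pass the test. The value of -0.33 came from its probe set with the highest mean over the arrays. AMT3-1, the other marker listed for arbusculated cells, differed by 1.01 (limma adjusted p = 0.30) and, on its other probe set, by -0.15. The secondary-wall cellulose synthases CESA4, CESA7 and CESA9, markers of xylem and sclerenchyma, were detected, with a median per array of 6.10 to 6.69 in arbusculated cells, 6.51 to 7.20 in systemic cells and 7.21 to 8.49 in mock cells. Among 6 genes of dividing cells the median was 4.01 to 6.73 in arbusculated cells, 3.79 to 4.26 in systemic cells and 4.25 to 4.54 in mock cells. Of these, PCNA, the sliding clamp of DNA replication, read 9.12, 7.93 and 6.64 in arbusculated cells, 5.19, 6.27 and 3.11 in systemic cells, and 4.46, 4.95 and 4.40 in mock cells. Its arbusculated arrays lay above all others, by 3.29 from the mock mean (limma adjusted p = 0.24). CYCB1-1, CDKB2-1, CYCB2-2, CYCB2-1 and another gene named CycB1-1 differed from mock cells by 1.25, 0.62, 0.58, 0.15 and -0.07. In each of them the arbusculated and mock arrays overlapped. Among 5 endodermis markers, CASP1, Lsi1, Lsi2, SCR1 and SHR1, the median was 5.70 to 7.55 in arbusculated cells, 5.55 to 5.70 in systemic cells and 5.17 to 7.02 in mock cells. As with the members, 4 of these 5 were higher in arbusculated than in mock cells (median 0.66, SCR1 without overlap) and 5 of 5 higher than in systemic cells (median 0.55), and 0 passed in limma (1 at an unadjusted p under 0.05 against mock cells and 0 against systemic cells). The phloem markers SUT1 and FTIP1 had a median of 5.15 to 5.61 in arbusculated cells, 4.93 to 5.14 in systemic cells and 5.48 to 5.63 in mock cells. The part of these other cell types in the results below was not tested.

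In arbusculated cells 33 of the 34 members had a higher mean level than in mock cells, and none passed the test in either direction. The median difference over the members was 1.12, against a median of -0.12 over all rice probe sets and 0.21 over the probe sets that represent the 17905 genes. All 24 ribosomal proteins, all 5 initiation factors and the elongation factor were on the higher side. The member on the lower side was rps14, which its other names had kept out of the 24. In limma, 0 of the 34 had an adjusted p under 0.05 (lowest 0.27), where 0.187% of all probe sets were called. At an unadjusted p under 0.05 there were 13 of 34, where 14.2% of all probe sets passed. In 6 members, RPL3, RPS27AB, RPS4, RPL7A-2, RPS21 and eIF4G, every arbusculated array lay above every mock array, as did 6.64% of all probe sets and 24.0% of the 358 probe sets with a mean of 10 or more. Members were bright as a set: 31 lay above the median level of all probe sets, 5.52. The probe sets above that level had a median difference of -0.11, and in 7.96% of them every arbusculated array lay above every mock array. Those with a mean of 10 or more, a level that most members did not reach, had a median difference of 0.38.

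**Figure D1:**
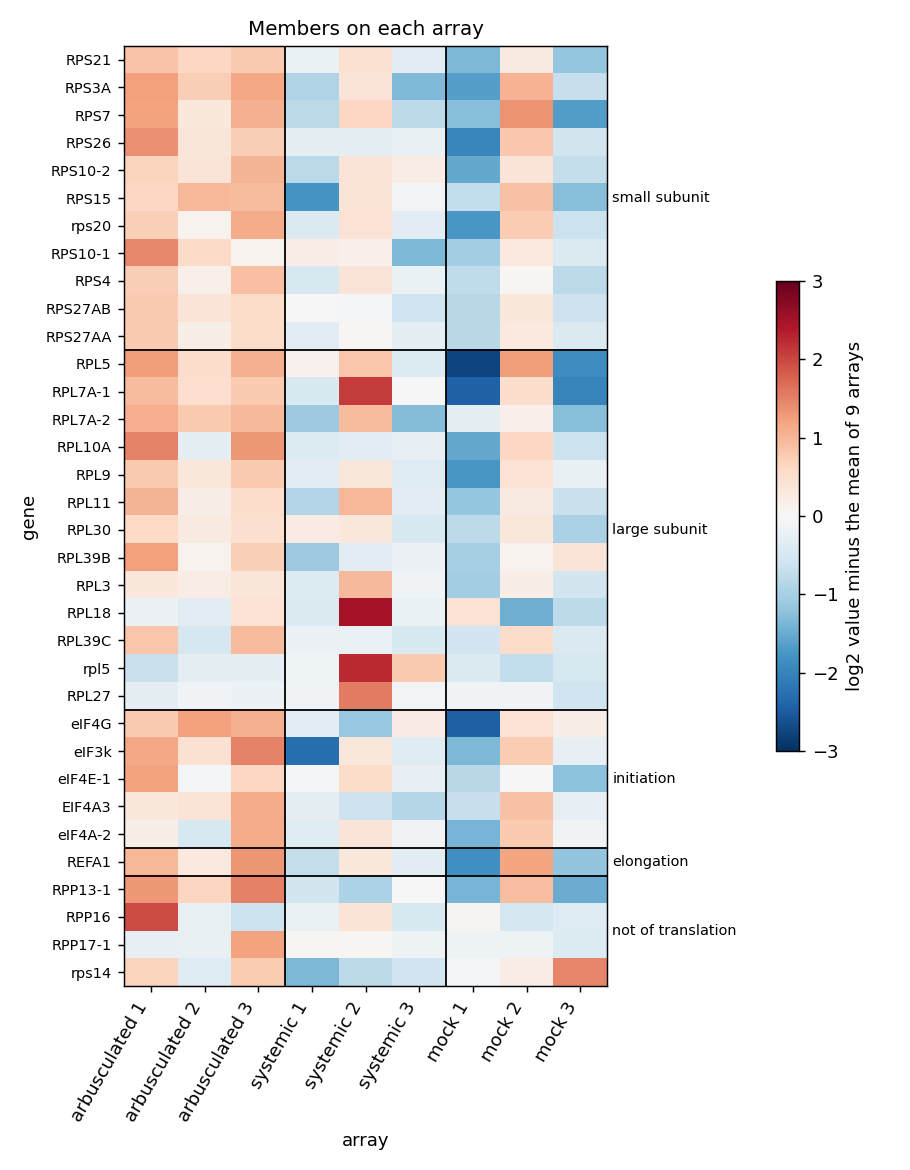
Level of each member on each of the 9 arrays, as the log2 difference from that member's mean over the 9 arrays (colour), with members down the page by role and arrays across by group. The columns of mock replicate 2 and systemic replicate 2 are high for most ribosomal proteins, in contrast to the other arrays of their groups.

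Among the small subunit proteins all 11 were higher in arbusculated than in mock cells, by 0.83 to 1.50 with a median of 1.24. RPS21, a small protein of this subunit, had levels of 11.30, 11.05 and 11.23 in arbusculated cells, 10.24, 10.89 and 10.12 in systemic cells, and 9.10, 10.70 and 9.28 in mock cells. The arbusculated arrays lay above all others, and mock replicate 2 stood well above both other mock arrays. The difference between arbusculated and mock cells was 1.50 (SE 0.42), and limma gave an adjusted p of 0.27. RPS3A, the small subunit protein also called eS1 in the universal nomenclature, had levels of 10.77, 10.28 and 10.69 in arbusculated cells, 8.64, 9.91 and 8.21 in systemic cells, and 7.88, 10.57 and 8.85 in mock cells. Its arbusculated arrays lay above every systemic array, but mock replicate 2 was as high as they were. It differed by 1.48 (SE 0.67) from mock cells, with an adjusted p of 0.36 in limma.

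RPS4 was the small subunit member named in the selection rule. It read 8.74, 8.15 and 8.90 in arbusculated cells, 7.52, 8.39 and 7.81 in systemic cells, and 7.25, 8.06 and 7.23 in mock cells. Every arbusculated array was above every mock array, while systemic replicate 2 lay within the arbusculated range. Its difference from mock cells was 1.08 (SE 0.34, limma adjusted p = 0.30). RPS15 had levels of 7.59, 7.96 and 7.93 in arbusculated cells, 5.19, 7.38 and 6.90 in systemic cells, and 6.23, 7.85 and 5.69 in mock cells. The arbusculated arrays did not overlap the systemic arrays, and mock replicate 2 again reached the arbusculated range. RPS27AA and RPS27AB, each made as a fusion of ubiquitin and a ribosomal protein, were higher in arbusculated than in mock cells by 0.83 and 0.94. The remaining small subunit proteins RPS7, RPS10-1, RPS10-2, RPS26 and rps20 were higher by 1.40, 1.10, 1.31, 1.38 and 1.19.

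The large subunit proteins spread more widely, by 0.08 to 2.07 between arbusculated and mock cells with a median of 0.93 over 13 genes. RPL5, which binds the 5S rRNA, had levels of 8.83, 8.11 and 8.65 in arbusculated cells, 7.70, 8.41 and 7.16 in systemic cells, and 4.83, 8.83 and 5.71 in mock cells. Mock replicates 1 and 3 were low and mock replicate 2 was as high as the highest arbusculated array, so the groups overlapped. The difference of 2.07 (SE 0.90) was the largest among the members in this comparison, and its 95% interval ran from 0.03 to 4.12 (limma, adjusted p = 0.35).

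RPL7A-1 and RPL7A-2 encode the same kind of large subunit protein from different chromosomes. RPL7A-1 read 8.58, 8.14 and 8.43 in arbusculated cells, 7.19, 9.74 and 7.66 in systemic cells, and 5.20, 8.17 and 5.63 in mock cells. RPL7A-2 read 9.59, 9.28 and 9.46 in arbusculated cells, 7.40, 9.44 and 7.20 in systemic cells, and 8.22, 8.65 and 7.22 in mock cells. In both genes the arbusculated arrays lay close together and systemic replicate 2 was far above the other systemic arrays. The differences between arbusculated and mock cells were 2.05 (SE 0.85) for RPL7A-1 and 1.41 (SE 0.60) for RPL7A-2, and neither passed the test. Between systemic and mock cells RPL7A-1 differed by 1.86 and RPL7A-2 by -0.01. The difference between the genes was not tested.

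RPL3, which reaches towards the peptidyl transferase centre, read 8.95, 8.84 and 8.98 in arbusculated cells, 8.22, 9.60 and 8.52 in systemic cells, and 7.59, 8.83 and 8.08 in mock cells. The arbusculated arrays were barely above mock replicate 2, and systemic replicate 2 was the highest array. RPL39B, a very small protein of the large subunit, read 11.00, 9.89 and 10.49 in arbusculated cells, 8.69, 9.44 and 9.60 in systemic cells, and 8.78, 9.89 and 10.16 in mock cells. Its arbusculated arrays lay above the systemic arrays and overlapped the mock arrays. RPL3 and RPL39B differed between arbusculated and mock cells by 0.75 (SE 0.41) and 0.85 (SE 0.44), neither past the test. RPL30, RPL11, RPL9, RPL39C and RPL10A differed by 0.93, 1.09, 1.14, 0.57 and 1.35.

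RPL18, RPL27 and rpl5 stood apart from the rest in their order: the mean of their representative was highest in systemic cells. RPL18 and RPL27 also bear the names CL18 and CL27, used for proteins of the plastid ribosome, and the files give no other name for rpl5. For RPL18 the levels were 4.70, 4.55 and 5.30 in arbusculated cells, 4.45, 7.36 and 4.67 in systemic cells, and 5.31, 3.42 and 4.09 in mock cells. For rpl5 they were 4.43, 4.80 and 4.80 in arbusculated cells, 4.98, 7.34 and 5.89 in systemic cells, and 4.67, 4.35 and 4.61 in mock cells. RPL27 read 5.77, 5.96 and 5.88 in arbusculated cells, 5.96, 7.60 and 5.97 in systemic cells, and 5.96, 5.96 and 5.45 in mock cells. For RPL27 this order depends on the probe set: its 3 probe sets gave -0.76 to 0.72 between systemic and mock cells, and 1 of them had its lowest mean in systemic cells. On the representatives of all 3 genes systemic replicate 2 was the highest array, and in rpl5 every systemic array lay above all others. Mean levels of RPL18 and rpl5 were at or below the median of all probe sets.

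The 5 initiation factors were higher in arbusculated than in mock cells by 0.51 to 1.64, with a median of 1.29. eIF4G, the scaffold that joins the cap-binding protein to the ribosome, had levels of 8.17, 8.62 and 8.45 in arbusculated cells, 7.05, 6.25 and 7.65 in systemic cells, and 4.93, 7.83 and 7.56 in mock cells. Its arbusculated arrays lay above all others, and mock replicate 1 was the lowest array. The difference from mock cells was 1.64 (SE 0.72, limma adjusted p = 0.35). eIF3k, a subunit of the eIF3 complex, read 8.31, 7.60 and 8.64 in arbusculated cells, 4.88, 7.50 and 6.80 in systemic cells, and 5.80, 7.91 and 6.91 in mock cells. Every arbusculated array exceeded every systemic array, whereas mock replicate 2 exceeded the lowest arbusculated array. The cap-binding protein eIF4E-1 read 8.46, 7.21 and 7.86 in arbusculated cells, 7.21, 7.80 and 7.00 in systemic cells, and 6.40, 7.25 and 6.01 in mock cells. Its groups overlapped, and it differed from mock cells by 1.29 (SE 0.42) in arbusculated and by 0.78 (SE 0.42) in systemic cells. EIF4A3 is counted here by its name, and its product is a helicase of the exon junction complex. It read 7.56, 7.66 and 8.35 in arbusculated cells, 6.96, 6.62 and 6.38 in systemic cells, and 6.56, 8.12 and 6.99 in mock cells. Every arbusculated array was above the systemic arrays, and mock replicate 2 lay within the arbusculated range. It differed from mock cells by 0.63 in arbusculated cells, and the RNA helicase eIF4A-2 by 0.51.

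REFA1 is also named REFA2, REFA3 and REFA4, so its probe sets may read several near-identical gene copies. Its levels were 10.41, 9.71 and 10.74 in arbusculated cells, 8.70, 9.73 and 9.07 in systemic cells, and 7.58, 10.60 and 8.24 in mock cells. Mock replicate 2 lay within the arbusculated range and the other mock arrays were the lowest of all. The difference between arbusculated and mock cells was 1.48 (SE 0.71), with an adjusted p of 0.37 in limma. The 3 rice EF-1-alpha control probe sets of the array design read 2.06 to 7.15 over the arrays and did not show this order.

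Among the 4 members also named for something other than translation, RPP13-1, a thioredoxin of the phloem sap, read 9.03, 8.36 and 9.23 in arbusculated cells, 7.18, 6.77 and 7.72 in systemic cells, and 6.32, 8.65 and 6.22 in mock cells. Its arbusculated arrays lay above the systemic arrays, and mock replicate 2 was as high as they were. It differed from mock cells by 1.81 (SE 0.63, limma adjusted p = 0.32). The rps14 locus read 9.18, 8.12 and 9.28 in arbusculated cells, 7.16, 7.73 and 7.94 in systemic cells, and 8.45, 8.72 and 9.97 in mock cells. Every systemic array lay below every other array, and the difference between systemic and mock cells was -1.44 (SE 0.47, limma adjusted p = 0.97). The 4 probe sets of this locus did not share that direction, with differences of -1.44, -0.74, 0.49 and 0.52. RPP16 and RPP17-1 differed between arbusculated and mock cells by 0.65 and 0.48.

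The comparison of systemic with mock cells concerns fungus-free cells of colonised roots. Of the 34 members 26 were higher in systemic than in mock cells, the median difference was 0.22, and it was 0.07 over all rice probe sets. In limma 0 members passed (lowest adjusted p 0.97), where 0% of all probe sets were called. At an unadjusted p under 0.05 there were 2 members, rpl5 and rps14, where 4.34% of all probe sets passed. Every systemic array was above every mock array in 1 member, rpl5, against 6.77% of all probe sets, and below in 1 member, rps14, against 3.40%. The largest differences were 1.86 (SE 0.85) for RPL7A-1, 1.53 (SE 0.51) for rpl5 and 1.30 (SE 0.90) for RPL5. EIF4A3 and eIF3k were lower in systemic than in mock cells by values of -0.57 (SE 0.41) and -0.48 (SE 0.73), neither past the test. Without mock replicate 1 the median difference was -0.14, and without mock replicate 2 it was 0.78, with 0 members called where 0.00524% of all probe sets were.

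Against systemic cells, 31 of the 34 members were higher in arbusculated cells, with a median difference of 0.77, where the median was -0.17 over all rice probe sets, 0.30 over gene representatives and 0.54 over the probe sets with a mean of 10 or more. In limma 0 members passed (lowest adjusted p 0.16), where 0.246% of all probe sets were called, and 9 members had an unadjusted p under 0.05, where 23.9% of all probe sets did. In 12 members every arbusculated array exceeded every systemic array, as in 9.39% of all probe sets. The share was 12.6% of probe sets above the median level and 32.4% of those with a mean of 10 or more. Of the 12 members, 6 were small subunit proteins, 1 was a large subunit protein and 3 were initiation factors, with RPP13-1 and rps14 besides. The largest differences were 1.79 (SE 0.73) for eIF3k, 1.66 (SE 0.67) for RPS3A, 1.65 (SE 0.63) for RPP13-1 and 1.43 (SE 0.72) for eIF4G. The 1 member with every arbusculated array below every systemic array was rpl5, at -1.39 (SE 0.51), where 22.7% of all probe sets lay that way. A further quantile normalization brought the median over the members to 0.40. With it the median was -0.13 over all rice probe sets, 0.27 over gene representatives and 0.17 over the probe sets with a mean of 10 or more.

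**Figure D2:**
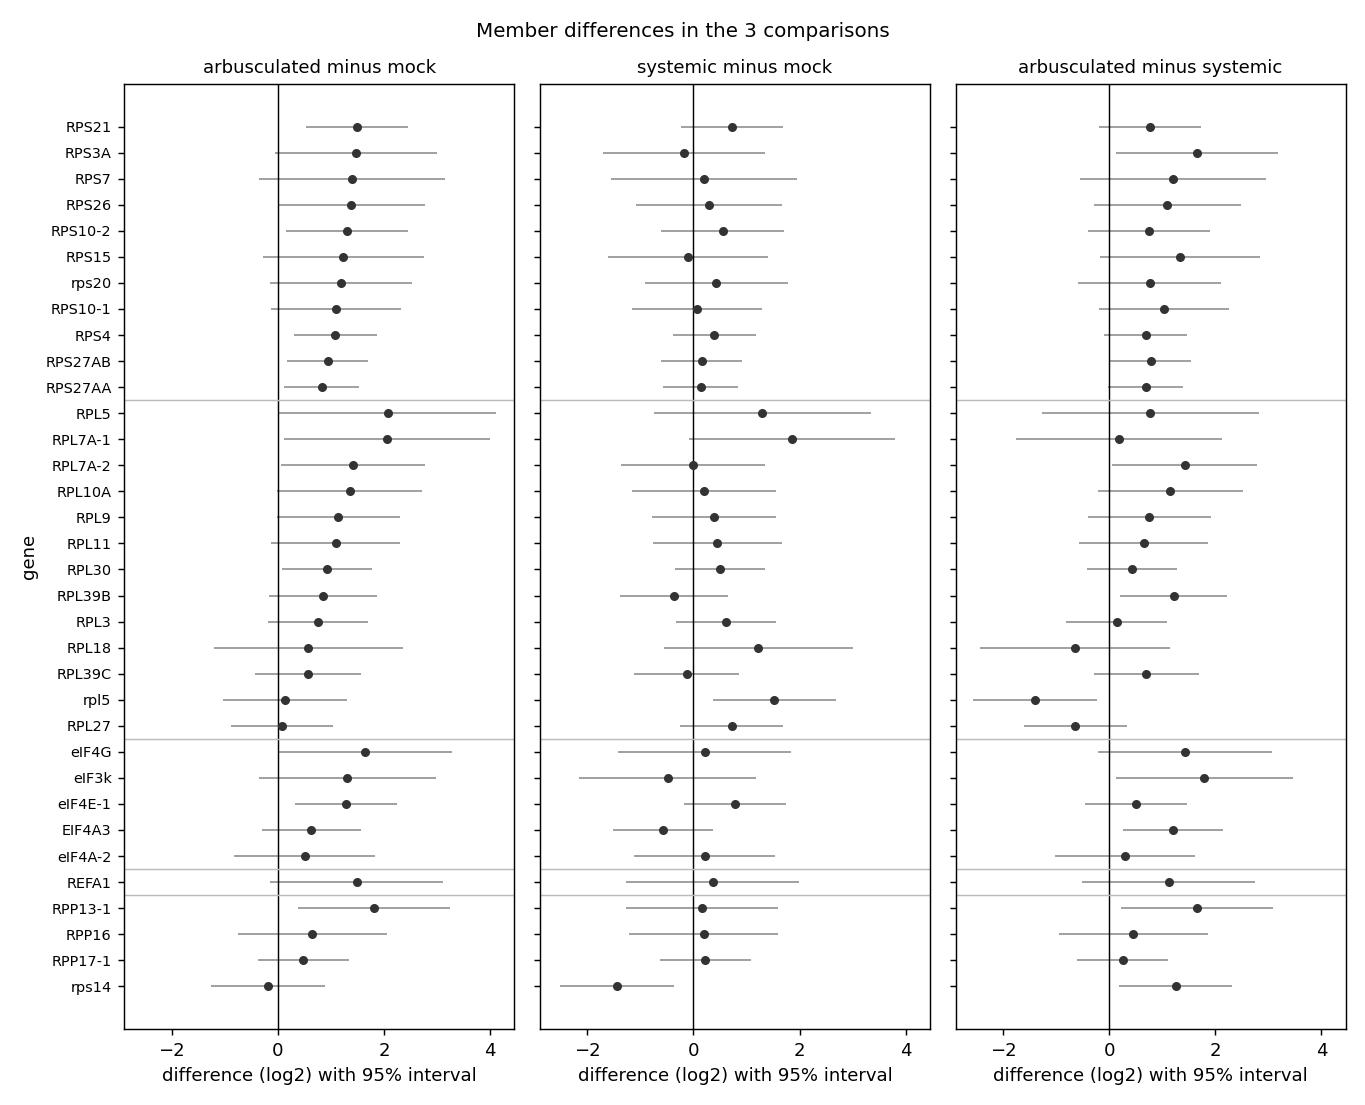
Difference of each member in the 3 comparisons, in log2 units, as the estimate of the fit with its 95% interval, with members down the page by role. Most points lie to the right of 0 in the comparison of arbusculated with mock cells, with a median of 1.12, and around 0 in that of systemic with mock cells, with a median of 0.22.

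The comparisons share arrays, so their counts are not independent of each other. The group mean was highest in arbusculated, next in systemic and lowest in mock cells in 16 of 24 ribosomal proteins, an order that 22.1% of all gene representatives had. In 5 of 24 arbusculated was highest and systemic lowest, an order found in 31.2% of gene representatives. The remaining 3 were RPL18, RPL27 and rpl5.

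Members moved together from array to array within groups. The median level of the 24 ribosomal proteins was 9.13, 8.32 and 8.98 in arbusculated cells, 7.74, 9.16 and 7.74 in systemic cells, and 7.29, 8.81 and 7.26 in mock cells. Mock replicate 2 lay within the arbusculated range and systemic replicate 2 just above it, and the other arrays of both groups lay below it. Mock replicate 2 was the highest mock array in 20 of 24 ribosomal proteins, against 42.2% of gene representatives, and systemic replicate 2 was the highest systemic array in 18 of 24, against 33.8%. Among the probe sets with a mean of 10 or more, mock replicate 2 was the highest mock array in 55.0% and systemic replicate 2 the highest systemic array in 26.3%. Over the ribosomal proteins, mock replicate 2 differed from the mean of the other mock arrays by a median of 1.21. The same median was 0.08 over gene representatives and 0.35 over the probe sets with a mean of 10 or more. Taken as a whole array, however, it resembled arbusculated cells (r = 0.88) more than its own group (r = 0.85). For mock replicates 1 and 3 the order was the opposite, at 0.80 against 0.85 and at 0.85 against 0.87. Systemic replicate 2 was also nearer to its own group, at 0.82 against 0.85. The part of this likeness in the comparisons with mock cells was not tested. As a description across the 9 arrays, deviations from the group means correlated with a median r of 0.69 over 276 pairs of ribosomal proteins, and of 0.02 over all pairs of gene representatives. These pairs share arrays and scaling.

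Other measures of the arrays moved in part with these levels. The middle ubiquitin control read 10.80, 11.67 and 11.61 in arbusculated cells, 10.10, 10.05 and 10.41 in systemic cells, and 9.43, 11.68 and 9.45 in mock cells. The middle GAPDH control read 8.28, 7.75 and 9.50 in arbusculated cells, 6.34, 6.03 and 7.74 in systemic cells, and 6.01, 8.94 and 7.19 in mock cells. Mock replicate 2 was high in both, and systemic replicate 2 in neither. The mean of the bioB spikes was 10.51, 11.20 and 10.76 in arbusculated, 10.37, 10.46 and 10.33 in systemic, and 10.32, 9.91 and 10.30 in mock arrays. In this measure every arbusculated array lay above all others, and mock replicate 2 was the lowest. The 3' minus 5' difference over 7 pairs of control probe sets, used to gauge RNA quality, read 1.14, 0.71 and 0.22 in arbusculated cells, -0.27, 0.52 and -0.07 in systemic cells, and 0.48, 0.26 and 0.13 in mock cells. It was the highest systemic value on systemic replicate 2 and the middle mock value on mock replicate 2. The part of these measures in the results was not tested.

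**Figure D3:**
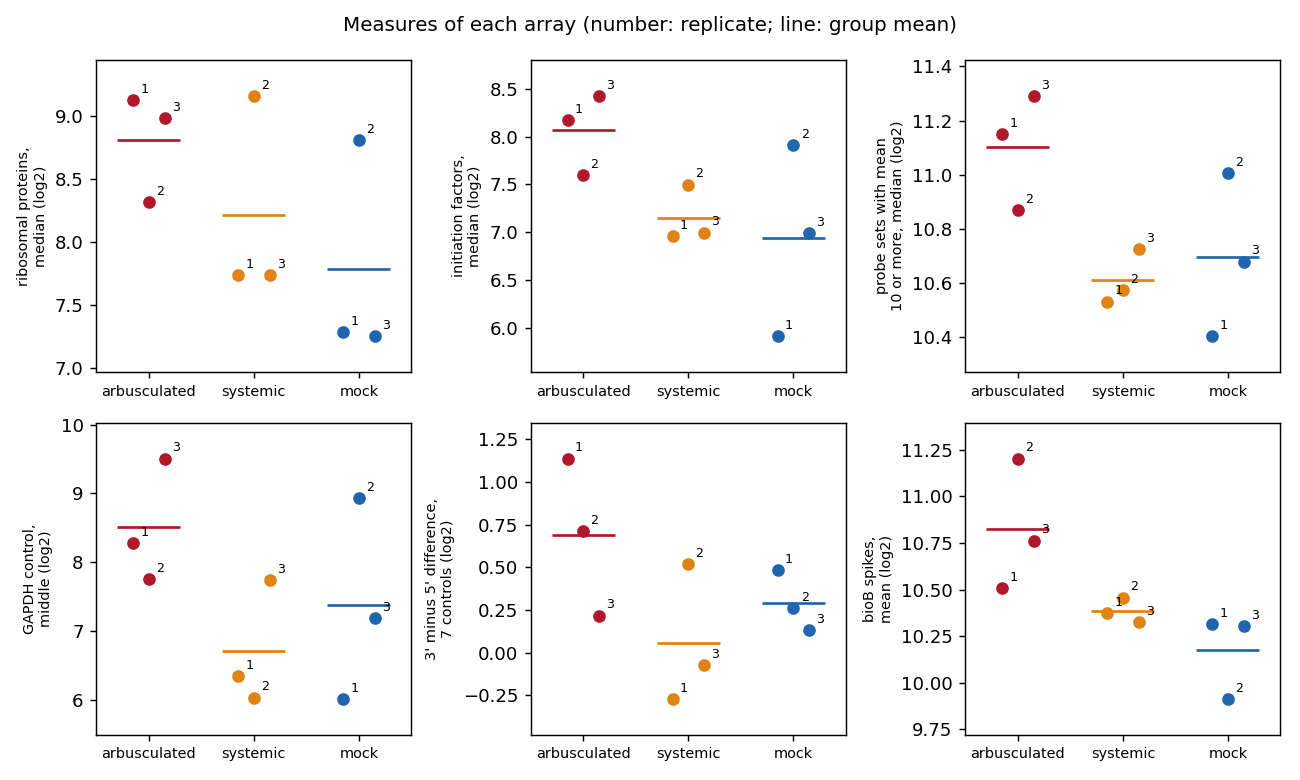
Per-array values in log2 units, in 6 panels, with a numbered point for each replicate and a line at the group mean. The panels show ribosomal proteins, initiation factors, probe sets with a mean of 10 or more, the middle GAPDH control, the 3' minus 5' difference and the bioB spikes added to each hybridisation. The medians of ribosomal proteins and of initiation factors are high on mock replicate 2, at 8.81 and 7.91, and the 3' minus 5' difference there, 0.26, is the middle value of the mock arrays.

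With mock replicate 2 left out, the median difference between arbusculated and mock cells was 1.55, and 3 of the 34 members passed the test, where 0.295% of all probe sets were called. RPL5 was higher by 3.26 (SE 0.44, limma adjusted p = 0.045), RPP13-1 by 2.60 (SE 0.37, adjusted p = 0.048) and RPS21 by 2.00 (SE 0.28, adjusted p = 0.048). At an unadjusted p under 0.05 there were 25 of 34, where 16.2% of all probe sets passed. REFA1 differed by 2.38 (SE 0.43), with an adjusted p of 0.084. Leaving out mock replicate 1 instead moved values the other way, to a median of 0.77. RPL5 then differed by 1.26, REFA1 by 0.87, RPS3A by 0.87 and eIF4G by 0.72. In that fit 0 members passed in limma (3 at an unadjusted p under 0.05). The share of all probe sets passing in it is not given here, so these counts have no background beside them. Each of these fits rests on 2 mock arrays, and mock replicate 2 was singled out after its values had been seen.

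**Figure D4:**
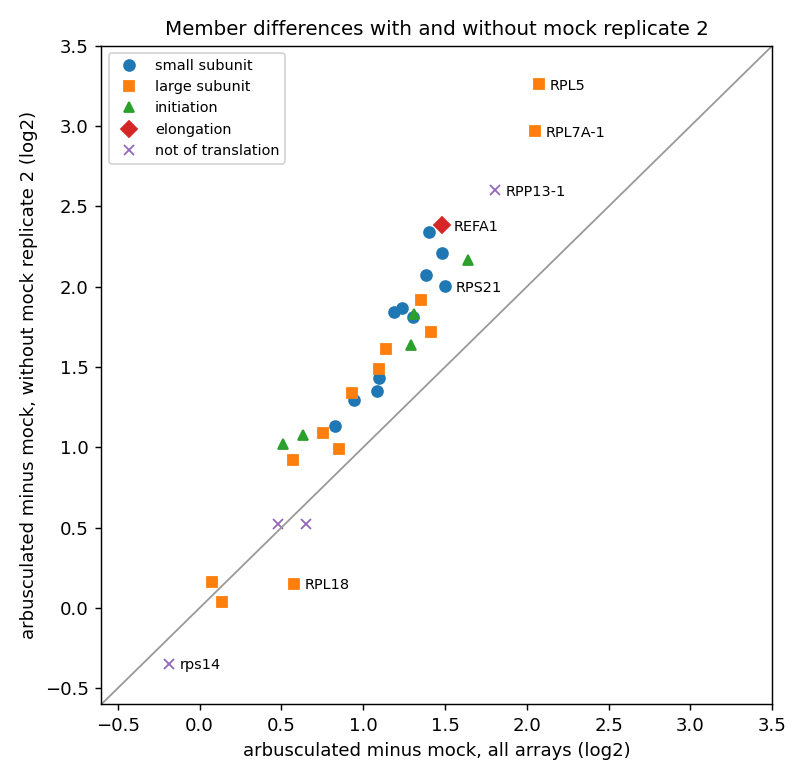
Difference between arbusculated and mock cells for each member, in log2 units, in the fit of all 9 arrays and in the fit without mock replicate 2. The median is 1.12 with the array and 1.55 without it, and RPL5, RPP13-1 and RPS21 pass the test without it.

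Of the 34 members, 11 had more than 1 probe set, 55 in all. For REFA1 and RPS4 the probe sets gave differences between arbusculated and mock cells of 1.48 to 1.79 and of 0.89 to 1.08. The probe sets of rps20 gave -0.17 to 2.10, those of RPP13-1 -0.22 to 1.81, those of RPL10A 0.08 to 1.35, those of RPS3A 0.50 to 1.71 and those of eIF4G 0.40 to 1.64. For eIF4G the representative gave the highest value of its 4 probe sets. The lower values of RPP13-1 and RPL10A came from probe sets with means of 2.33 and 2.61, far below their representatives. In 9 members the representative has a name ending in _x_at or _s_at, which marks probes that may also match other transcripts, so members with near-identical copies are uncertain as single genes.

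**Figure D5:**
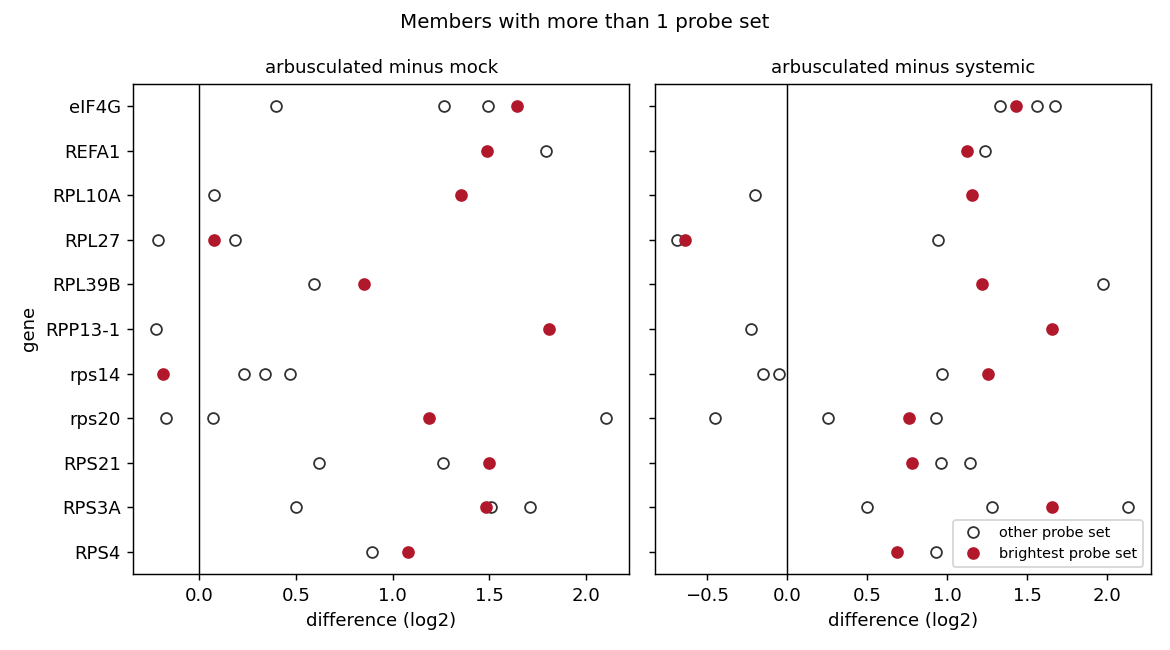
Difference between arbusculated and mock cells, in log2 units, for every probe set of the 11 members with more than 1, with the representative marked. The probe sets of REFA1 lie within 0.31 of each other and those of rps20 span 2.27.

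A list of 16 other genes, drawn up as translation genes, was also measured. Between arbusculated and mock cells 13 of the 16 were higher, with a median of 0.59, and 0 passed in limma (3 at an unadjusted p under 0.05, where 14.2% of all probe sets passed). EF-1-beta, which reloads EF-1-alpha with GTP, was higher by 1.45. PES, WDR12, BOP1 and RRP46, listed together for ribosome biogenesis, differed by 0.99, 1.19, 0.21 and -0.31. The poly(A) binding protein OsPAB1 differed by 0.45, and the lysyl-tRNA synthetase LysRS by 0.91. Between arbusculated and systemic cells 14 of the 16 were higher, with a median of 0.60, and 0 passed in limma (4 at an unadjusted p under 0.05, where 23.9% of all probe sets passed). Between systemic and mock cells 9 of the 16 were higher, with a median of 0.06, and 0 passed in limma (2 at an unadjusted p under 0.05, where 4.34% of all probe sets passed). The list holds 3 entries whose role is not borne out by the annotation: FIB is by its other names an aminotransferase of auxin synthesis and not fibrillarin, and AL1 and ASL1 matched by symbol alone. Without these 3, left out after their values were seen, 12 of 13 were higher in arbusculated than in mock cells with a median of 0.67, 13 of 13 higher than in systemic cells with a median of 0.78, and 7 of 13 higher in systemic than in mock cells with a median of 0.03.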

How the data were processed

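The authors deposited 1 table of log2 expression values, made with RMA per the submitters' processing notes, for 9 rice arrays. Over the rice probe sets its lowest value is 1.52 and its highest 14.06. The 123 array controls were left out of the tests, and genes were named through the platform annotation, with 22436 probe sets paired with 1 gene and 95 with several. Each gene is represented by its own probe set with the highest mean over the arrays. All 9 arrays entered 1 limma model (limma 3.58.1 in R 4.3.3), with Benjamini-Hochberg adjustment over 57258 probe sets per comparison and a threshold of 0.05. The script was tested on simulated data. Members, lists and tests were chosen with earlier results of these data known. Genes named with full values were those with the 8 largest positive or 4 largest negative differences in a comparison, with RPS4, RPL7A-2 and REFA1 in each. Other genes named were chosen after their values were seen. Replicates of the same number did not deviate together (correlations -0.29 to 0.039), so they were not paired. The 3' minus 5' measure can use either of 2 actin 3' probe sets; the other was tried after the data had been seen. Sequences and coordinates were not used here.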

Additional observations from a re-analysis of the deposited data

How the results depend on the processing

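The 34 members were refitted under 18 alternatives. With brighter probe sets only, and without _x_at and _s_at probe sets, 31 of them remained. The median difference over the members kept its sign under all 9 alternatives that kept every array of the groups compared. Between arbusculated and mock cells it ranged over 0.95 to 1.19 there, with 1.19 from brighter probe sets only. Leaving out 1 array at a time gave medians of 0.77 to 1.55 (arbusculated against mock), 0.64 to 1.02 (arbusculated against systemic) and -0.14 to 0.78 (systemic against mock). Members called numbered 0 to 3 in the first of these comparisons, 3 without mock replicate 2, and 0 in the others. Probe sets called numbered 20 to 169 for arbusculated against mock cells (107 with all arrays), 25 to 126 for arbusculated against systemic cells (141) and 0 to 3 for systemic against mock cells (0). For arbusculated against mock cells, 67 were called with brighter probe sets only, 44 with only the 6 arrays compared and 32 with the replicate block. For arbusculated against systemic cells, 11 were called with only the 6 arrays compared, 14 with the replicate block and 92 with trend and robust moderation. The replicate block called 0 members in each comparison. Of 38 differences of named members, the sign turned for rps14 between arbusculated and mock cells (0.21 with the mean of its probe sets, -0.49 to 0.27 without 1 array), and for RPL7A-2 between systemic and mock cells (0.048 with cyclic loess, 0.042 with quantile normalization, -0.73 to 0.39 without 1 array). It also turned without 1 array for REFA1 (-0.25 to 1.26) and eIF3k (-1.04 to 0.28) between systemic and mock cells, and for RPL18 between arbusculated and systemic cells (-1.17 to 0.29). The cause was not tested. The group means of the 3' minus 5' difference were 0.69 in arbusculated, 0.06 in systemic and 0.29 in mock cells, and 0.78, 0.20 and 0.32 with the other actin probe set, chosen after seeing the data. The planned search of promoter motifs was not run.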
